A study of Mus musculus with 4 samples.

Results

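The outer segment of a rod or cone is a modified cilium, and 35 genes of that cilium and of its transport machinery were followed here in mouse eyes at subjective and objective day. The genes were chosen by name, from lists of intraflagellar transport (IFT) subunits, BBSome subunits and proteins of the connecting cilium and axoneme. All 35 were found among the 22863 genes of the deposited table, each in a single row, and all 35 had values high enough to be tested.

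The eyes came from C3H mice (C3H/f+/+), a strain that makes melatonin and that, unlike the original C3H, carries no Pde6b mutation causing retinal degeneration. Subjective day mice were taken at CT 6 after 18 hours in darkness according to the Methods (30 hours in another paragraph of the study), so they saw no light on the day of collection. Objective day mice were taken at ZT 6 after light in the morning and 1 hour in darkness. Each group had 2 samples, and each sample pooled the 4 eyes of a pair of mice (1 female, 1 male), with the anterior eye and lens removed, so that retina, RPE, choroid and posterior sclera were measured together by RNA-seq of poly-A RNA. The age of these mice was not given in the sources used here.

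In a photoreceptor, all protein of the outer segment is made in the inner segment and must pass through a narrow connecting cilium. IFT particles carry cargo along the axonemal microtubules, with IFT-B and kinesin-2 moving towards the tip and IFT-A and dynein-2 moving back to the base. The BBSome is a coat-like complex that links membrane proteins to IFT and helps to remove proteins from the outer segment. Loss of many of these genes causes retinal degeneration, alone or with kidney and other ciliary disease.

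The deposited values are fractional and have the form of gene counts brought to a shared library size, which neither the table nor the methods state. Column totals lay between 33278000 and 35237000 and were not taken as the sequencing depth. Pearson correlations of log2 values across genes were 0.991 between the subjective day samples and 0.993 between the objective day samples. Lens transcripts were present although the lens had been removed, and their summed value differed by sample number rather than by condition (49941 and 5980 at subjective day, 56544 and 14353 at objective day). Markers of the ocular surface epithelium were lower at objective day in 4 of the 4 tested (limma adjusted p under 0.05). By that rule 7.45% of all genes tested were lower. With the GC trend described below removed, 2 of the 4 were still called, beside 0.616% of all genes, and 4 were lower at an unadjusted p under 0.05. The summed values of the list were 10375 and 10854 at subjective day, against 2965 and 5430 at objective day. Krt12, the defining keratin of cornea, was near 0 in every sample (at most 12.5). The part of these cells in the results below was not tested.

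A minority of the ciliary genes differed between the conditions, all of them lower at objective day. At an adjusted p under 0.05 (limma on log2(value + 1), adjusted over the 17784 genes tested), 7 of the 35 genes fell at objective day and 0 rose. Of all genes tested, 8.51% changed by the same rule, 7.45% falling and 1.06% rising, and the 7 genes are 20.0% of the 35. The 7 were Rp1, Bbs5, Ift74, Rpgr, Nphp4, Cep290 and Arl6, and their falls ranged from 38.7% for Rp1 to 23.6% for Arl6. At an unadjusted p under 0.05, 10 of the 35 were lower and 3 higher (25.4% of all genes passed in either direction). The median log2 fold change of the 35 genes was -0.02, beside 0.01 for all genes tested, and 17 of the 35 had a log2 fold change between -0.1 and 0.1. Values of the conditions did not overlap for 13 genes lower and 10 higher at objective day, or 65.7% of the 35, beside 56.1% of all genes tested (28.2% lower and 27.9% higher). In a pool of tissues, fewer cells of a type and less RNA per cell cannot be told apart, which holds for each fall given here.

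**Figure D1:**
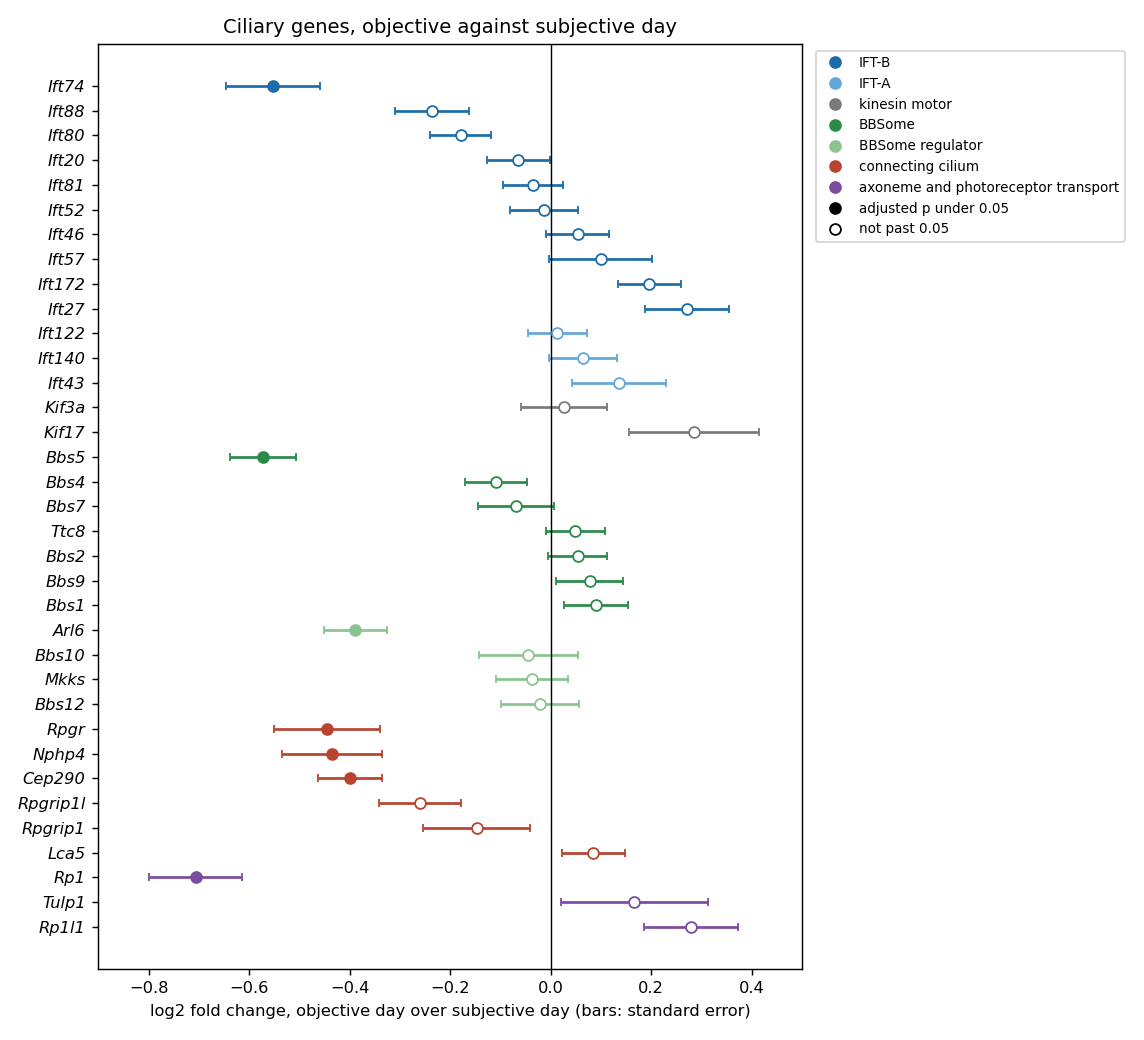
Log2 fold change of each of the 35 ciliary genes at objective day over subjective day (horizontal axis, on the log2(value + 1) scale, bars showing the standard error from limma), grouped by role. Filled points mark the 7 genes with an adjusted p under 0.05, all of them left of 0, from -0.71 for Rp1 to -0.39 for Arl6.

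The calls rested unequally on single samples. Without subjective day 2 or without objective day 1, limma called 5 of the 35 genes (Rp1, Bbs5, Ift74, Cep290 and Arl6), beside 1289 and 736 of all 17784 genes in place of 1514. Without objective day 2 it called only Rp1 and Bbs5 of the 35, beside 664 of all genes. Without subjective day 1 all 7 were called, with Rp1l1 in addition as higher (log2 fold change 0.36), beside 2557 of all genes. No two-sided exact permutation test of 2 samples against 2 can give a p under 0.333. When the variance in limma was not allowed to follow the mean level, 0 of the 35 and 0 of all genes were called, and 11 of the 35 and 3586 of all genes had an unadjusted p under 0.05.

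Levels per length differed widely within the 35 genes. The 4 highest, by the mean value per kilobase of the longest transcript, were Tulp1 at 22309, Rp1 at 7874, Rp1l1 at 4854 and Rpgrip1 at 2888, all genes that work mainly in photoreceptors. The other 31 lay between 48.5 for Kif17 and 1397 for Ttc8, with a median of 538. BBSome subunits were at similar levels per kilobase, from 691 to 1397, while those of IFT-B ranged from 194 for Ift88 to 1199 for Ift20. Together the 35 genes made up 0.653% and 0.640% of the column total at subjective day and 0.615% and 0.599% at objective day. The 4 photoreceptor genes supplied between 71.5% and 73.7% of that sum in every sample.

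Rp1 had the greatest fall of the 35. It encodes a microtubule-binding protein with doublecortin domains that lies along the axoneme of the outer segment and is needed for orderly stacking of the discs. Its gene (ENSMUSG00000025900) is on chromosome 1 of GRCm38 (minus strand, 3999557 to 4409241). The values were 65369 and 68756 at subjective day (67062 ± 2395, SD, n = 2), against 42567 and 39651 at objective day (41109 ± 2062, SD, n = 2). Both objective day samples lay far below both subjective day samples, by more than the spread within either condition. The log2 fold change was -0.71 (SE 0.093, limma adjusted p 0.00694), and leaving out any 1 sample kept it between -0.76 and -0.66. The share of Rp1 in the summed value of the 35 genes went from 28.4% and 30.8% at subjective day to 19.8% and 19.9% at objective day.

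Rp1l1, the paralog of Rp1 with the same kind of microtubule-binding domains and also an axonemal protein of photoreceptors, is on chromosome 14 (plus strand, 63992506 to 64035025). It had values of 30989 and 27644 at subjective day (29316 ± 2365, SD, n = 2) and of 37238 and 33900 at objective day (35569 ± 2360, SD, n = 2). Its conditions did not overlap, with objective day above, but the log2 fold change of 0.28 (standard error 0.094) did not pass the threshold (limma adjusted p 0.118). Within each library, the ratio of Rp1 to Rp1l1 per kilobase does not depend on the scaling of the library. This ratio, chosen after the values were seen, was 2.05 and 2.42 at subjective day, against 1.11 and 1.14 at objective day. The log2 difference of the ratio was -0.99, with an exact permutation p of 0.333, the smallest that this design allows. The transcripts differ in GC content (39.6% for Rp1 and 55.2% for Rp1l1), and with the GC trend described below removed, their log2 fold changes were -0.31 and 0.16.

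Tulp1, a tubby-like protein required for protein transport towards the outer segment, had values of 51463 and 40270 at subjective day, against 56497 and 46219 at objective day. The ranges overlapped, and samples numbered 1 were above those numbered 2 in both conditions. Its log2 fold change was 0.17 (SE 0.15, limma adjusted p 0.524). Of the 3 axonemal and transport genes of the list, Rp1 alone passed the threshold.

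**Figure D2:**
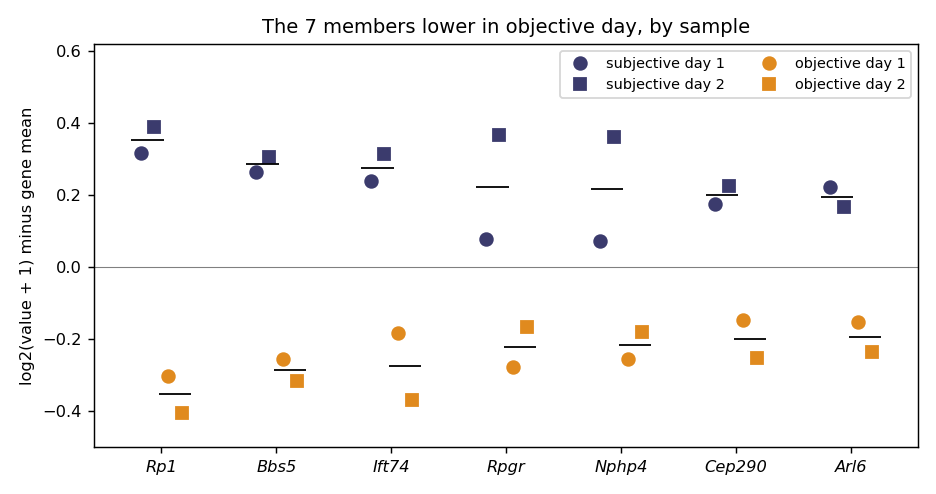
Values of the 7 called genes in each of the 4 samples, as log2(value + 1) minus the mean of the gene (vertical axis), with circles for samples numbered 1 and squares for samples numbered 2, dark for subjective and orange for objective day. Horizontal lines mark the mean of each condition, and for every gene both objective day samples lie under both subjective day samples, most narrowly for Rpgr and Nphp4.

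The connecting cilium held the most calls, 3 of its 6 genes, where 7.45% of all genes fell. Rpgr, Cep290 and Nphp4 fell, and Rpgrip1l, Rpgrip1 and Lca5 did not pass the threshold. The summed value of the 6 genes was 32964 and 38209 at subjective day, against 30085 and 32072 at objective day, a sum set mainly by Rpgrip1.

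Rpgr encodes the retinitis pigmentosa GTPase regulator, a protein of the connecting cilium that controls traffic into the outer segment. It is on chromosome X (minus strand, 10073621 to 10216920, ENSMUSG00000031174). Its values were 1014 and 1240 at subjective day (1127 ± 160, SD, n = 2), against 793 and 856 at objective day (824 ± 44.4, SD, n = 2). The conditions did not overlap, and subjective day 1 lay nearer to objective day 2 than to subjective day 2. The log2 fold change was -0.44 (SE 0.11, limma adjusted p 0.0455), and it ran from -0.59 to -0.30 with each sample left out. Rpgr shares 208 exonic bases with Srpx on the same strand, and median-of-ratios scaling left its log2 fold change at -0.45 with an adjusted p just past the threshold (0.0513 from limma). With the GC trend removed it was -0.20 (limma adjusted p 0.426). Rpgrip1, which anchors RPGR in the cilium, had values of 21705 and 26176 at subjective day, against 20375 and 22736 at objective day, which overlapped. Its log2 fold change was -0.15 (SE 0.11, limma adjusted p 0.437), and 1057 of its exonic bases lie opposite Supt16.

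Nphp4, a nephronophthisis protein of the transition zone that binds RPGRIP1, is on chromosome 4 (plus strand, 152476706 to 152563183, ENSMUSG00000039577). Its values were 1364 and 1668 at subjective day (1516 ± 215, SD, n = 2), against 1087 and 1145 at objective day (1116 ± 40.6, SD, n = 2). All of the subjective day values were higher, with a wide gap between the 2 subjective day samples. The log2 fold change was -0.44 (SE 0.10, limma adjusted p 0.0412), between -0.58 and -0.29 with each sample left out. Per kilobase and within each library, Nphp4 stood at 0.0985 and 0.0999 of Rpgrip1 at subjective day, against 0.0836 and 0.0789 at objective day. Per kilobase of Rpgrip1l it stood at 2.21 and 2.89 at subjective day, against 2.11 and 2.39 at objective day, which overlapped (log2 difference -0.17, exact permutation p = 0.667). Both ratios were chosen after the values were seen.

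Cep290 encodes a large protein of the Y-shaped links between the axoneme and the ciliary membrane. It is on chromosome 10 (plus strand, 100487558 to 100574840, ENSMUSG00000019971). Its values were 5795 and 5996 at subjective day (5895 ± 143, SD, n = 2), against 4637 and 4312 at objective day (4475 ± 230, SD, n = 2). The 2 conditions were well apart. The log2 fold change was -0.40 (SE 0.064, limma adjusted p 0.0123), and 0.06 with the GC trend removed (limma adjusted p 0.723). In addition, 881 exonic bases lie opposite 4930430F08Rik, and without a stated strand setting reads there cannot be assigned to either gene. Rpgrip1l, the paralog of Rpgrip1 found at the transition zone of cilia in many tissues, had a log2 fold change of -0.26 (limma adjusted p 0.0975). Lca5, which encodes lebercilin, an IFT-associated protein, was the only gene of this group with a positive value, with values of 2229 and 2324 at subjective day, against 2473 and 2356 at objective day (log2 fold change 0.085, limma adjusted p 0.443).

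Among the 7 BBSome subunits, Bbs5 alone passed the threshold. It encodes a subunit with lipid-binding PH-like domains and is on chromosome 2 (plus strand, 69647171 to 69667571, ENSMUSG00000063145). Its values were 1583 and 1629 at subjective day (1606 ± 32.5, SD, n = 2), against 1103 and 1056 at objective day (1080 ± 33.2, SD, n = 2). Replicates were close in both conditions and the gap between the conditions was many times their spread. The log2 fold change was -0.57 (SE 0.066, limma adjusted p 0.00558), between -0.60 and -0.54 with each sample left out, and -0.19 with the GC trend removed (limma adjusted p 0.209).

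The other 6 subunits (Bbs1, Bbs2, Bbs4, Bbs7, Bbs9 and Ttc8) had log2 fold changes between -0.11 and 0.090. Bbs4, which encodes a subunit built of tetratricopeptide repeats, had values of 4328 and 4064 at subjective day, against 3913 and 3866 at objective day. Bbs1, whose product contributes to binding of ARL6, had values of 3822 and 3675 at subjective day, against 4128 and 3859 at objective day. Ttc8, the gene of BBS8, had values of 3072 and 3167 at subjective day, against 3197 and 3258 at objective day. For these 3 genes the conditions did not overlap, but the differences were small and the adjusted p was 0.313, 0.419 and 0.641 from limma's test. Relative to the mean of the other 6 subunits per kilobase, a ratio chosen after the values were seen, Bbs5 stood at 1.05 and 1.08 at subjective day, against 0.724 and 0.695 at objective day. This ratio differed by -0.59 on the log2 scale (exact permutation p = 0.333, the smallest possible). The GC content was 39.9% for Bbs5 and between 41.0% and 51.8% for the other 6. With the GC trend described below removed, the log2 fold change was -0.19 for Bbs5 and between 0.01 and 0.22 for the other 6.

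Of the 4 genes that act on the BBSome from outside, Arl6 fell. ARL6 is the small GTPase that recruits the BBSome to membranes, and its gene is on chromosome 16 (minus strand, 59612949 to 59639391, ENSMUSG00000022722). The values were 2505 and 2413 at subjective day (2459 ± 65.0, SD, n = 2), against 1932 and 1826 at objective day (1879 ± 75.2, SD, n = 2). No value of either condition reached the range of the other. Its log2 fold change was -0.39 (SE 0.063, limma adjusted p 0.0130), and -0.03 with the GC trend removed (limma adjusted p 0.869). Antisense overlap was small, as 55 of its exonic bases lie opposite 4930547E14Rik. Mkks, Bbs10 and Bbs12, which encode chaperonin-like proteins that assemble the BBSome, had log2 fold changes of -0.04, -0.04 and -0.02. For these 3 genes the conditions overlapped.

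**Figure D3:**
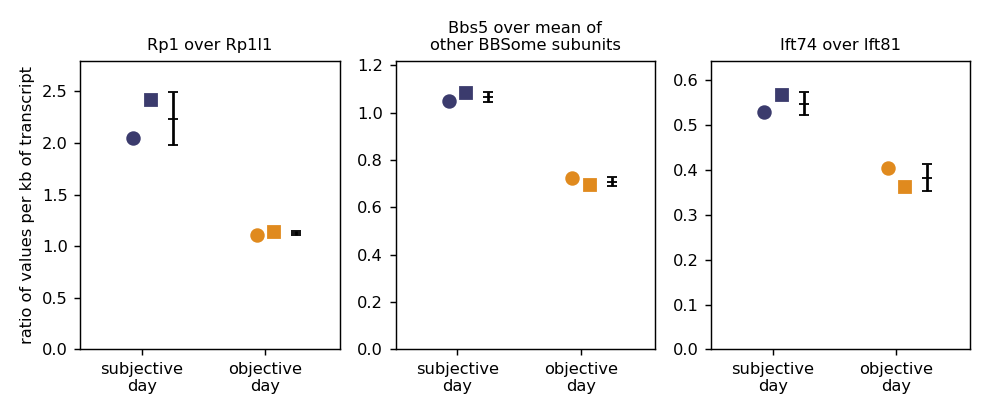
Ratios of values per kilobase of transcript within each library (vertical axes, from 0), for Rp1 over Rp1l1, Bbs5 over the mean of the other 6 BBSome subunits, and Ift74 over Ift81. Circles and squares are the samples numbered 1 and 2, dark for subjective and orange for objective day. The black marks beside them are the mean and SD of the 2 samples. The ratios were chosen after the values were seen, each with a called gene over uncalled genes. Each is lower in both objective day samples.

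Of the 10 IFT-B genes, Ift74 alone passed the threshold. IFT74 pairs with IFT81, and together they bind the tubulin that IFT carries into the cilium. Ift74 is on chromosome 4 (plus strand, 94614491 to 94693229, ENSMUSG00000028576). Its values were 710 and 748 at subjective day (729 ± 26.7, SD, n = 2), against 530 and 465 at objective day (498 ± 45.3, SD, n = 2). The objective day samples were the lower pair and differed more from each other than the subjective day samples did. The log2 fold change was -0.55 (SE 0.093, limma adjusted p 0.0146), and -0.26 with the GC trend removed (limma adjusted p 0.223). Ift81, whose product is the partner of IFT74, had values of 1849 and 1819 at subjective day, against 1806 and 1774 at objective day, and a log2 fold change of -0.04 (limma adjusted p 0.755). The ratio of Ift74 to Ift81 per kilobase, chosen after the values were seen, was 0.529 and 0.567 at subjective day, against 0.404 and 0.362 at objective day. With the GC trend removed the log2 fold changes of Ift74 and Ift81 were -0.26 and 0.17.

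The remaining IFT-B genes ran from -0.24 for Ift88 to 0.27 for Ift27 on the log2 scale. Ift88, loss of which in mice shortens cilia, and Ift80 had objective day values below both subjective day values, with an adjusted p of 0.0981 and 0.123 from limma's test. Ift27, a small GTPase-like subunit that takes part in moving the BBSome out of cilia, and Ift172, the largest subunit, had objective day values above both subjective day values, with an adjusted p of 0.0945 and 0.104 from limma's test. The summed value of the 10 genes was 13954 and 13616 at subjective day, against 13760 and 13396 at objective day, and these ranges overlapped.

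For IFT-A, none of the 3 genes passed the threshold (limma, also none at an unadjusted p under 0.05), with log2 fold changes of 0.01 for Ift122, 0.06 for Ift140 and 0.14 for Ift43. Neither kinesin gene passed it. Kif3a, the motor subunit of heterotrimeric kinesin-2, had a log2 fold change of 0.03, and Kif17, the homodimeric kinesin-2, of 0.29 with a standard error of 0.13. Kif17 was the lowest of the 35 genes, with values of 152 and 150 at subjective day, against 177 and 191 at objective day, and an adjusted p of 0.223 from limma's test.

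The direction of these differences varied with base composition. The GC content of the longest transcript of each gene ran from 38.7% for Cep290 to 60.1% for Kif17, with a median of 45.5%, beside 49.8% over all genes tested. Across the 35 genes, which share the same 4 libraries and are not independent, the log2 fold change had a Spearman correlation of 0.75 with GC content, beside 0.58 across the 17536 genes of known GC content. For transcript length the correlation was -0.12 across the 35 genes. A division at 43%, made after the values were seen, left 11 of the 35 genes under it, and 6 of these 11 fell. Among all genes under 43%, 35.3% fell. Of the 24 genes at or above 43%, 1 fell, beside 2.29% of all such genes.

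Coding stretches of 90 bases show the contrast. Each is the stretch, counted without overlap from the first coding base, whose GC content is nearest to that of the whole transcript in GENCODE release M21 on GRCm38, and G and C are in capitals. Rp1 and Cep290 fell and are poor in G and C, Rp1l1 was higher without passing the threshold and is rich in them, and Nphp4 fell although it is richer still.
Rp1, coding bases 2431 to 2520: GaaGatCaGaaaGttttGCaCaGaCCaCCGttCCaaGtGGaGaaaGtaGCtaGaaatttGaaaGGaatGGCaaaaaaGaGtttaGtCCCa
Cep290, coding bases 451 to 540: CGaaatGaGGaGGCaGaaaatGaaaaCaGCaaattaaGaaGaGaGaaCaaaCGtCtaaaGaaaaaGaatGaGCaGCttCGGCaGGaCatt
Rp1l1, coding bases 1531 to 1620: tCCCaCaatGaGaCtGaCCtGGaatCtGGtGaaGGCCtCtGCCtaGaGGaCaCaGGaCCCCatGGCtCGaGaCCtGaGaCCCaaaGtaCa
Nphp4, coding bases 901 to 990: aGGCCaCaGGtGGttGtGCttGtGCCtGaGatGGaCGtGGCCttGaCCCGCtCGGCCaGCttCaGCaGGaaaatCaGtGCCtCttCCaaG
The GC content of these stretches is 40.0% for Rp1, 38.9% for Cep290, 55.6% for Rp1l1 and 58.9% for Nphp4.

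**Figure D4:**
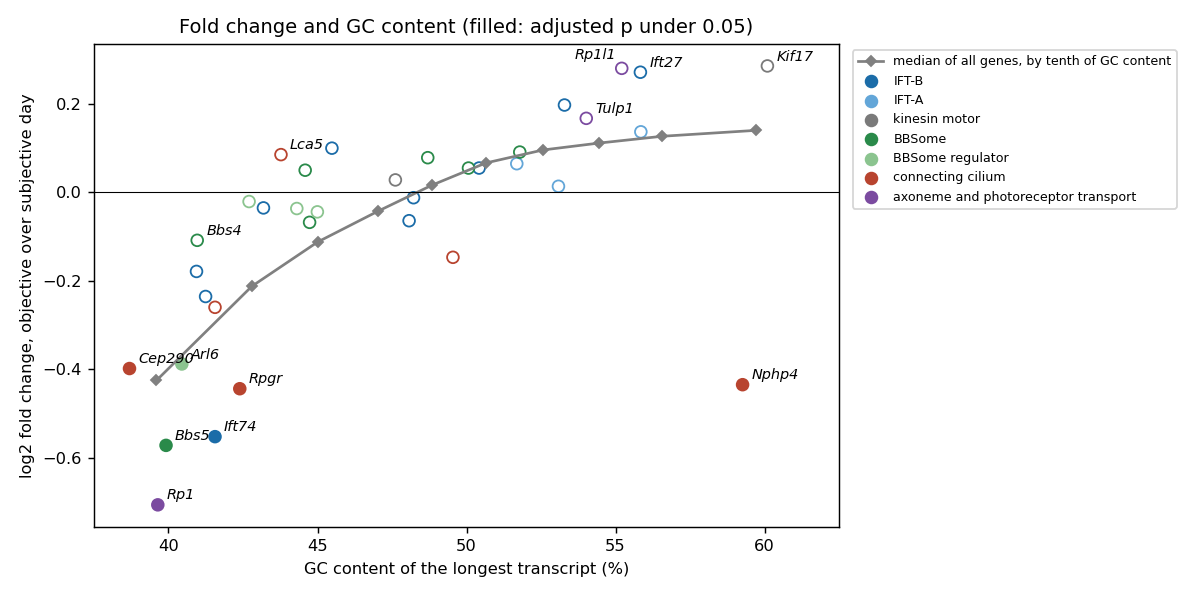
Log2 fold change at objective day over subjective day (vertical axis) against the GC content of the longest transcript in percent (horizontal axis) for the 35 ciliary genes, coloured by role and filled where the adjusted p was under 0.05. Grey diamonds are the medians of all genes in 10 GC bins of equal gene number, rising from -0.43 to 0.14; 6 of the called genes lie at the left end and Nphp4 lies apart at 59.3%.

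The GC trend of every sample was then subtracted by local regression, a step that would take away biology tied to GC content as well. After that, 0 of the 35 genes passed limma's threshold, where 0.616% of all genes were lower and 0.456% higher, and at an unadjusted p under 0.05 4 of the 35 were lower and 6 higher, beside 14.3% of all genes in either direction. The median log2 fold change of the 35 was then 0.06, and 24 of the 35 were positive in place of 16, with 10 turned from negative to positive (Ift80 from -0.18 to 0.15 and Bbs4 from -0.11 to 0.22 among them) and 2 the other way. Of the 7 genes that had fallen, Cep290 turned its direction, and Arl6, Bbs5, Rpgr and Ift74 came nearer to 0, as given with each gene. The difference of Rp1 became -0.31 (limma adjusted p 0.139). Nphp4 went the other way. Its transcript, at 59.3% GC, is in the highest of 10 bins of GC content, whose median log2 fold change was 0.14, and with the trend removed its difference grew from -0.44 to -0.57 (adjusted p 0.0811).

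Rod markers were compared as a measure of photoreceptor RNA. None of the 12 passed limma's threshold (2 were higher at an unadjusted p under 0.05), and their median log2 fold change was 0.18. Their median GC content was 52.6%. With the GC trend removed their median log2 fold change was 0.08, again with none called (0 lower and 2 higher at an unadjusted p under 0.05). Their summed value was 2630200 and 2301600 at subjective day, against 2897700 and 2594100 at objective day. With each sample rescaled so that the mean log2 value of these markers was equal, the median of all genes moved by -0.14 to -0.12 and that of the 35 genes to -0.16, and the same 7 genes were called lower, beside 8.52% of all genes (0.202% were higher, as were 0 of the 35). On this scale 5 of the 35 genes had a positive value, in place of 16, so the directions of the small differences depend on the scaling. Markers of motile cilia, which photoreceptors do not form, summed to between 2106 and 2379, of which Dnah9 gave between 1053 and 1346, and 0 of 8 passed limma's threshold (2 were lower at an unadjusted p under 0.05). In the RPE list 3 of 7 genes tested were lower, with summed values of 83284 and 69742 at subjective day, against 81200 and 73707 at objective day, and Best1 was at 9.70 or less. Of 6 Müller glia genes 2 were lower, with sums between 149210 and 165500 in all samples. Of 5 fibroblast genes 1 was lower, and of 3 blood genes 1 was higher, where 7.45% of all genes were lower and 1.06% higher. With the GC trend removed, 0 RPE, 0 Müller glia and 0 fibroblast genes were called by limma (at an unadjusted p under 0.05, 1, 2 and 1 were lower and 1, 0 and 0 higher), and 1 blood gene still was. None of 8 cone genes and 10 bipolar, amacrine and ganglion genes passed limma's threshold, with medians of 0.11 and 0.07. Nor did any of 5 microglia, 5 endothelium, 5 skeletal muscle and 5 tested lens genes, with medians of 0.19, 0.07, -0.01 and 0.58. At an unadjusted p under 0.05, 0 genes of these lists were lower. By that rule 1 cone gene, 2 bipolar, amacrine and ganglion genes and 2 microglia genes were higher. The part of these cells in the ciliary values was not tested.

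A further 67 genes of the same machinery, among them the remaining IFT subunits, motors, transition zone proteins and ciliary GTPases, were compared in the same way. Of these, 3 fell (4.48%, beside 7.45% of all genes tested; 1 without objective day 2) and 0 rose (7 without subjective day 1), with 10 lower and 9 higher at an unadjusted p under 0.05 in limma's test, which 25.4% of all genes passed in either direction. Their median log2 fold change was 0.04. Ttc30b, an IFT-B subunit, had values of 432 at subjective day and 268 at objective day on average, with a log2 fold change of -0.68 (limma adjusted p 0.0278); its close paralogs Ttc30a1 and Ttc30a2 may share reads with it, so its value is uncertain. Lztfl1, which regulates the entry of the BBSome into cilia, had means of 1505 and 999 and a log2 fold change of -0.59 (limma adjusted p 0.00573). Rp2h, the mouse gene of the GTPase-activating protein for ARL3, had means of 463 and 320 and a log2 fold change of -0.53 (limma adjusted p 0.0170). With the GC trend removed none of the 3 passed limma's threshold, and their differences were -0.60 for Ttc30b, -0.07 for Lztfl1 and 0.09 for Rp2h.

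None of the 25 further transition zone and nephronophthisis genes was called by limma (3 were lower and 3 higher at an unadjusted p under 0.05), and their median was 0.06. Of the 9 further GTPases and lipid carriers, which deliver membrane-attached proteins to the outer segment, 1 fell, beside 7.45% of all genes (1 was lower and 2 higher at an unadjusted p under 0.05), and the median was 0.16. The 7 further motor genes had a median of 0.05 with none called (2 lower and 2 higher at an unadjusted p under 0.05). The 4 further BBSome genes and regulators had a median of -0.16, and the 8 further IFT-B genes of -0.05. In each of these lists 1 gene fell, beside 7.45% of all genes (2 lower in each and 0 and 1 higher at an unadjusted p under 0.05). The 4 further IFT-A genes had a median of 0.02 and the 10 axoneme, rootlet and periciliary genes of 0.03. None of these was called (0 lower in each and 0 and 1 higher at an unadjusted p under 0.05).

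**Figure D5:**
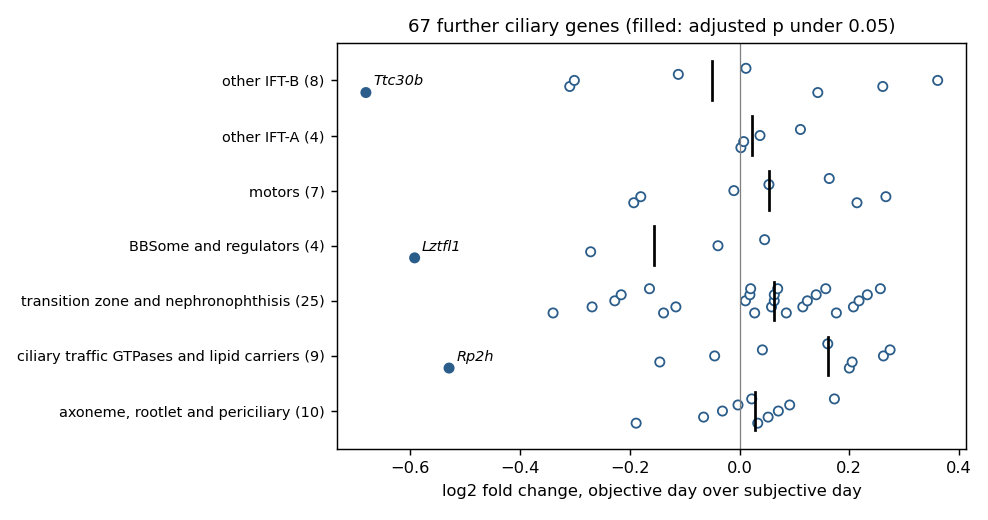
Log2 fold change at objective day over subjective day (horizontal axis) of the 67 further ciliary genes, in 7 lists with the number of genes in parentheses. Each point is a gene, black lines are medians and filled points mark the 3 genes with an adjusted p under 0.05, all left of -0.5.

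RFX proteins are the transcription factors best known for driving ciliary genes, and CRX drives photoreceptor genes. None of the 9 factors in this list passed limma's threshold (1 was lower at an unadjusted p under 0.05). Rfx3 was the nearest, with means of 1334 and 900 in subjective and objective day, a log2 fold change of -0.55 (limma adjusted p 0.0618), which ran from -0.79 to -0.31 with 1 sample left out. It was -0.69 with rod scaling, where it passed the threshold (adjusted p 0.0374), and -0.18 with the GC trend removed (adjusted p 0.598). Crx had a log2 fold change of -0.10 and Nrl of 0.11.

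Promoters were searched for the X-box half-site GTTGCC, to which RFX proteins bind, and for the CRX core TAATCC, on both strands in the 250 bases before each RefSeq start on GRCm38.p6. The table held 35 windows for 30 of the 35 genes. The half-site was in 6 of these windows (17.1%, beside 10.4% of 32851 windows of all genes), those of Ift27, Ift57, Ift140, Kif3a, Kif17 and Bbs7. The CRX core was in 2 windows (5.71%, beside 6.25% of all windows), those of Rpgrip1 and Bbs1. None of these 8 genes was among the 7 that fell, of which Rp1 is not in the table. The genes are too few for this to show a lack of the motifs in the genes that fell. A match is a description of letters and not a binding site. A stretch around each match is shown, with the motif in capitals, for Ift57, which holds the half-site 2 times, for Kif17, which had the highest log2 fold change of the 35, and for Rpgrip1, the most abundant gene with a match.
Ift57, chr16:49699160-49699259, plus strand: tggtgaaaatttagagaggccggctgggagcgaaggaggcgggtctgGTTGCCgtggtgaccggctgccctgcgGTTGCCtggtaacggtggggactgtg
Kif17, chr4:138262131-138262230, plus strand: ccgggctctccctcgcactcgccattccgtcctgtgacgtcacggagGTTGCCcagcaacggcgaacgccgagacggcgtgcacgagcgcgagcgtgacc
Rpgrip1, chr14:52110803-52110902, plus strand: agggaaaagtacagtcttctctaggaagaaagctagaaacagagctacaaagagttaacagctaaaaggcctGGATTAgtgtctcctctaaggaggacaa
In the Ift57 window the half-site occurs at 87 and at 60 bases before the start, in the Kif17 window at 73 bases, and in the Rpgrip1 window the core lies in reverse at 28 bases.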

How the data were processed

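RNA-seq values of 4 samples (subjective day, n = 2; objective day, n = 2) were analysed. According to the study's methods and the submitters' processing notes, reads of a single HiSeq lane were demultiplexed with CASAVA 1.8, aligned with TopHat2 2.0.9 and Bowtie2 2.1.0 to Ensembl release 72, counted with HTSeq and compared with edgeR. The genome build, strand setting and low-count filter are not given in the sources used here. The authors deposited 1 signal value per gene and sample, which has the form of a fractional gene count brought to a shared library size, although neither the table nor the methods say so. Whole reads were not recovered from these values, so the depth is unknown, no count model was run, and intervals that need counts are not given. The authors' log2 fold change, log2 CPM and p-value columns, deposited beside these values, hold their own comparison and were not used.

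Genes that reached 10 in 2 or more samples were compared on log2(value + 1) by limma 3.58.1 (R 4.3.3), with variances that follow the mean and Benjamini-Hochberg adjustment at 0.05. Fold changes on that scale understate those of low genes. The scaling by the authors was kept. GC content and length come from the longest transcript in GENCODE M21 (GRCm38), known for 98.6% of the genes tested, and the GC trend was removed by lowess with a span of 0.3. Near-identical transcripts were sought with minimap2 2.31-r1302 (at least 200 matching bases, at least 90% identity); the longest Ift80 transcript shares such a stretch with transcripts of 68 other genes. Exonic overlap with another gene was found for 10 of the 35 genes.

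The 35 genes and all lists were chosen with earlier results of these data known. Per-sample values are given for genes called here or in the fit with replicate block and GC trend removed together and for the 5 uncalled genes of highest mean; of the further ciliary and transcription factor lists, called genes are named, while marker lists are given by counts. Ift81, Kif17, Dnah9 and the other uncalled genes with values were named after their values were seen. Alternatives covered pseudocount, filter, scaling, variance model, GC trend, replicate block and each sample left out. The methods call the samples of a condition biological replicates. Figures were drawn with matplotlib 3.10.9. Protein sequences were not used here.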

Additional observations from a re-analysis of the deposited data

How the results depend on the processing

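Among the 35 ciliary genes, the 7 falls were called with pseudocounts of 0.5 and 10, without a filter, with a mean of at least 50 and with rod scaling; 6 were called with median-of-ratios scaling. No mean-variance trend left 0 of the 35 lower, and 0 genes lower and 0 higher over all genes (3586 at an unadjusted p under 0.05). Removing the GC trend left 0 of the 35 lower, 0 further ciliary genes lower, and 108 genes lower and 80 higher over all genes, against 1325 and 189. Cep290 reversed to 0.057 with the GC trend removed, with or without the replicate block. In all, 10 of the 35 turned from negative to positive and 2 the other way. Apart from Cep290, these were uncalled in the main fit and in the fit with the GC trend alone removed. Rod scaling gave 1515 lower and 36 higher over all genes. Median-of-ratios scaling gave 1 further ciliary gene higher.

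The labels number the samples of each condition 1 and 2 without saying that equal numbers were processed together. Deviations of equal numbers correlated at 0.319 across genes. With the replicate block, 10 of the 35 were lower (the 7 with Ift80, Ift88 and Rpgrip1l) and 3 higher (Ift27, Ift172 and Rp1l1), 11 further ciliary genes lower and 7 higher, and 2331 genes lower and 1282 higher over all. With the replicate block and the GC trend removed, 2 of the 35 were lower (Rp1 and Nphp4) and 3 higher (Bbs4, Lca5 and Ttc8), 2 further ciliary genes were lower and 5 higher, and 609 genes lower and 478 higher over all; Bbs4 reversed to 0.22. Rfx3 passed the threshold with the replicate block (limma adjusted p 0.00379).

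With each sample left out in turn, between 2 and 7 of the 35 were lower and between 0 and 1 higher, between 1 and 4 further ciliary genes lower and between 0 and 7 higher, and between 604 and 1691 genes lower and between 36 and 866 higher over all. The highest of these counts came without subjective day 1, and the lowest counts of lower genes without objective day 2; without objective day 1, 700 genes were lower and 36 higher over all. The causes were not tested. With 2 samples a condition, the precision of each gene is limited by their number.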
